A study of Mus musculus with 12 samples.

Results

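The hyperproliferation keratins are Krt6a, Krt6b, Krt16 and Krt17, and they were taken by symbol as 4 of the 18505 genes in an expression table of mouse back skin. All 4 had an FPKM above 0 in every sample. FPKM counts the fragments of a gene relative to its transcript length and to the depth of the library, so levels can be compared between genes. The rule names symbols and no measured value, although earlier results of these data were known when it was made.

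The skin came from BALB/c WT mice, which were male and 5 to 6 weeks old per the study's methods, and was sampled on day 10 in 12 samples, 4 per group. The control group had petroleum jelly on the shaved back. The IMQ + NS group had imiquimod (IMQ) cream, a Toll-like receptor agonist that gives psoriasis-like lesions, followed by NaCl solution (NS) under gauze and film. The IMQ + BZLF group had the same cream followed by Banzhilian formula (BZLF), a herbal preparation applied to the skin. All mice were shaved, and no cover is described for the controls, so cream and cover came together in both IMQ groups. The dose of BZLF behind the sequenced samples was not given in the sources used here. The sample names number 4 samples in each group without saying that each was a separate mouse, so the p-values measure the spread between these samples. Where 3 values follow each other below, they run from control through IMQ + NS to IMQ + BZLF.

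Keratins are the intermediate filament proteins of epithelia, and each filament is built from pairs of a type I and a type II keratin. Krt6a and Krt6b are type II keratins and Krt16 and Krt17 are type I keratins. In resting skin they are found mainly in hair follicles and other appendages, while the interfollicular epidermis makes Krt5 and Krt14 in its basal layer and Krt1 and Krt10 above it. After wounding and in psoriasis, keratinocytes of the interfollicular epidermis also make the hyperproliferation keratins.

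The 4 genes lie in the 2 keratin clusters of the mouse genome, all on the minus strand. On GRCm38, with the GENCODE M21 annotation, Krt6a spans chr15:101689910-101694307 and Krt6b chr15:101676023-101680287, each with 9 exons. Krt16 spans chr11:100246091-100248902 and Krt17 chr11:100256217-100261029, each with 8 exons. The coding sequences of Krt6a and Krt6b were 97.8% identical, with 37 differences over 1662 aligned bases and a longest shared run of 280 bases. Of the 100-base windows of the Krt6a transcript, 29.5% were found unchanged in that of Krt6b. A read that lies wholly within a shared run cannot be placed in 1 of the 2 genes. The study's methods give paired reads longer than these windows, so the share of such reads can be smaller than that of the windows. The split of FPKM between Krt6a and Krt6b is still uncertain, and their sum is given too. Krt16 and Krt17 were 78.2% identical and shared no 100-base window, but 3.14% of the windows of Krt16 were also in Krt14. Of the Krt6a windows, 2.29% were also in Krt5, with a longest shared coding run of 140 bases.

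The following stretches show how far short reads can tell the members apart. The first pair of sequences is the 60-base coding window in which Krt6a and Krt6b differ most, with 10 differences, in exon 4 at chr15:101692484-101692543 and chr15:101678303-101678362. All are written 5′ to 3′ on the transcript, and capitals mark the bases that differ within a pair.
Krt6a: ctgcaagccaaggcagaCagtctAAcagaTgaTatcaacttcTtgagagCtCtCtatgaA
Krt6b: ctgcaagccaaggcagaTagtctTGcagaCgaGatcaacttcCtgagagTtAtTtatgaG
The next window lies in exon 1 of both genes, at chr15:101694156-101694215 in Krt6a and chr15:101680131-101680190 in Krt6b, and has 0 differences.
Krt6a and Krt6b: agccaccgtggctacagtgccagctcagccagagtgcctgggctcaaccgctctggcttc
For the type I pair, the window with the fewest differences has 1, in exon 1 at chr11:100248486-100248545 and chr11:100260648-100260707.
Krt16: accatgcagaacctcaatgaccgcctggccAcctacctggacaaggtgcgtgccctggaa
Krt17: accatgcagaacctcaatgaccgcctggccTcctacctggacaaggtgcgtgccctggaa

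The summed FPKM of a sample lay between 444660 and 506622. The basal keratinocyte markers, 5 of 5 in the table, and the fibroblast markers, 5 of 5, were present in every sample, and no marker of any cell type checked was at 0 in all 4 samples of a group. Control replicate 2 stood apart from the other controls. Its Krt75, a keratin of the companion layer of the hair follicle, was 55.2 FPKM against 3.998 to 4.42 FPKM, and its melanocyte markers, 4 of 4, summed to 213 FPKM against 11.1 to 25.5 FPKM. The comparisons of the members and of the gene lists with controls were therefore also made without it. In bulk skin, fewer cells of a type and less RNA per cell cannot be told apart.

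Of the type II members, Krt6a had FPKM values of 8.28, 21.3, 10.6 and 10.04 in the 4 control samples. It had 366, 458, 842 and 587 FPKM in the IMQ + NS samples and 82.8, 129, 84.1 and 123 FPKM in the IMQ + BZLF samples. The 3 groups did not overlap, and the IMQ + BZLF samples lay between the other two. The group means were 12.5 ± 5.89, 563 ± 207 and 105 ± 24.5 FPKM (SD, n = 4 each).

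Krt6b was the lowest of the 4 members in normal skin, with 1.36, 2.68, 1.59 and 2.02 FPKM. It had 225, 393, 606 and 405 FPKM in the IMQ + NS samples, and 12.02, 16.1, 14.0 and 37.6 FPKM in the IMQ + BZLF samples. The groups again stood in the same order without overlap, with IMQ + BZLF replicate 4 above its group. The means were 1.91 ± 0.580, 407 ± 156 and 19.9 ± 11.9 FPKM (SD, n = 4 each). For Krt6a and Krt6b summed, the means were 14.5 ± 6.43, 970 ± 359 and 124 ± 32.99 FPKM (SD, n = 4 each).

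Of the type I members, Krt16, the usual partner of Krt6, had 2.35, 3.27, 2.28 and 2.58 FPKM in the control samples. It had 309, 485, 839 and 486 FPKM in the IMQ + NS samples and 9.35, 8.47, 15.7 and 52.3 FPKM in the IMQ + BZLF samples. IMQ + BZLF replicate 4 was again the highest of its group, and still far below the lowest IMQ + NS sample. The means were 2.62 ± 0.452, 530 ± 222 and 21.5 ± 20.8 FPKM (SD, n = 4 each).

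Krt17, which also marks the outer root sheath of the hair follicle, was the most abundant member in every sample. Its control values were 178, 588, 236 and 236 FPKM. It had 1444, 1214, 1921 and 1695 FPKM in the IMQ + NS samples and 1185, 1239, 1026 and 1123 FPKM in the IMQ + BZLF samples. Both IMQ groups were above all controls, but they overlapped each other, since IMQ + BZLF replicate 2 was above IMQ + NS replicate 2. The means were 310 ± 188, 1569 ± 306 and 1143 ± 91.2 FPKM (SD, n = 4 each). Among the IMQ + NS samples, replicate 3 was the highest for all 4 members.

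**Figure D1:**
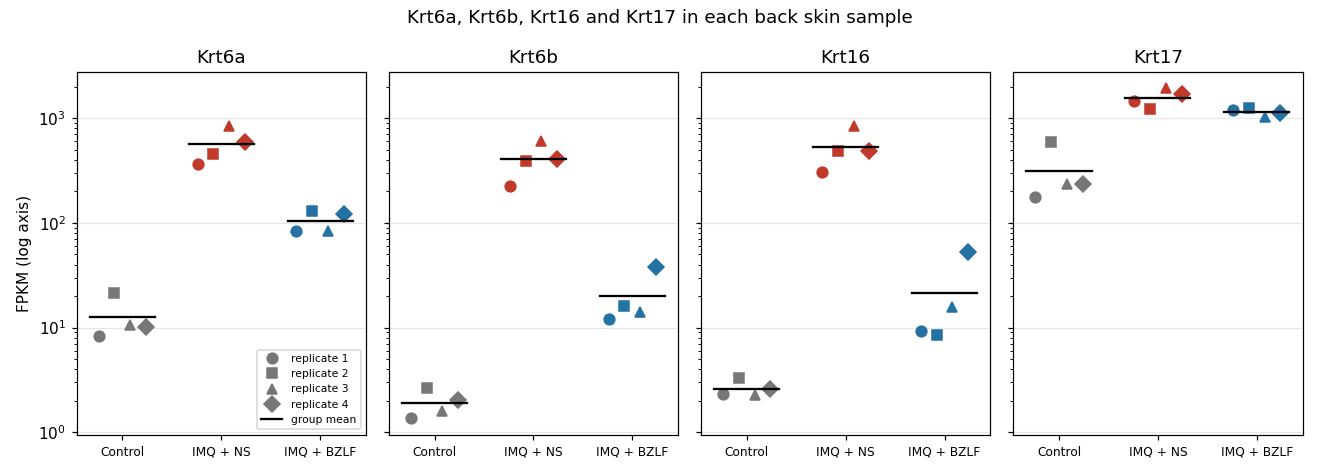
FPKM of Krt6a, Krt6b, Krt16 and Krt17 on a log axis in each of the 12 samples, with marker shape for the replicate number and a line at the group mean. Krt6a, Krt6b and Krt16 formed 3 separate groups, while the IMQ + NS and IMQ + BZLF values of Krt17 overlapped.

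By rank among all 18505 genes on mean FPKM, Krt6a stood at place 4768 in normal skin, at 160 with IMQ + NS and at 651 with IMQ + BZLF. Krt6b stood at 11260, 203 and 3412. Krt16 stood at 10456, 165 and 3165. Krt17 was already a highly abundant transcript in normal skin, at place 215, and stood at 38 and 71 in the IMQ groups.

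The first comparison asks how the psoriasis-like lesions differed from normal skin. All 4 members rose, with 44.9 times the control mean for Krt6a, 213 times for Krt6b, 202 times for Krt16 and 5.07 times for Krt17. On the log2(FPKM + 0.1) scale, which understates the change of low genes slightly, Krt6b rose by 7.62 (SE 0.30, limma adjusted p = 4.27e-07) and Krt16 by 7.53 (SE 0.27, limma adjusted p = 2.35e-07). Krt6a rose by 5.51 (SE 0.33, limma adjusted p = 4.96e-06). Krt17 rose least, by 2.48 (SE 0.34, limma adjusted p = 0.000399). The call asked for a log2 fold change beyond 1 in either direction and for an adjusted p under 0.05, and the 15288 genes that averaged 0.1 FPKM or more were tested. Of these, 11.4% were called higher and 11% lower, against 4 of 4 members called higher. For each member the 4 IMQ + NS samples were all above the 4 controls, and the two-sided exact permutation test gave p = 0.0286, the smallest that 4 against 4 samples allow. How many of all tested genes separated in this way was not counted, here or in the comparisons below. Such a separation therefore does not set the members apart from other genes.

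Without control replicate 2, the log2 fold changes were 5.79 for Krt6a, 7.79 for Krt6b, 7.64 for Krt16 and 2.85 for Krt17, all still called. That sample was 2.72 times the mean of the other controls for Krt17 and 1.36 times for Krt16.

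The second comparison asks what BZLF changed in skin that had been given IMQ. Krt6a, Krt6b and Krt16 fell, and Krt17 was not called. The mean of the IMQ + NS samples was 5.39 times that of the IMQ + BZLF samples for Krt6a, 20.5 times for Krt6b, 24.7 times for Krt16 and 1.37 times for Krt17. Without IMQ + BZLF replicate 4 the ratio was 47.4 for Krt16 and 29.1 for Krt6b. On the log2 scale Krt16 fell by 4.95 (SE 0.54, limma adjusted p = 0.00183) and Krt6b fell by 4.42 (SE 0.38, limma adjusted p = 0.000879). Krt6a fell by 2.39 (SE 0.25, limma adjusted p = 0.00167). In this comparison 2.20% of all tested genes were called lower and 0.321% higher, against 3 of 4 members called lower and 0 higher. From the largest fall among the 15288 genes, Krt16 stood at place 14, Krt6b at 18 and Krt6a at 85.

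Krt17 had a log2 difference of -0.44 between the IMQ + BZLF and IMQ + NS samples, with a 95% interval from -0.76 to -0.12 (limma adjusted p = 0.108, unadjusted p = 0.0128). The exact permutation test gave p = 0.0571, against 0.0286 for each of the other 3 members. Its interval lay within a log2 difference of 1 in size, which is the fold the call asks for.

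The third comparison set the IMQ + BZLF samples against normal skin. All 4 members were still higher than in the controls, at 8.33 times the control mean for Krt6a, 10.4 times for Krt6b, 8.19 times for Krt16 and 3.69 times for Krt17. Without IMQ + BZLF replicate 4 these were 4.26 times for Krt16 and 7.33 times for Krt6b. The log2 fold changes were 3.12 for Krt6a (SE 0.29, limma adjusted p = 9.09e-05) and 3.20 for Krt6b (SE 0.36, limma adjusted p = 0.000223). They were 2.58 for Krt16 (SE 0.51, limma adjusted p = 0.00324) and 2.04 for Krt17 (SE 0.32, limma adjusted p = 0.00105). Of all tested genes 9.65% were called higher and 10.1% lower, against 4 of 4 members called higher. No member overlapped the controls (exact permutation p = 0.0286 each), and all 4 were also called without control replicate 2. This comparison shares its samples with the first and the second, so the 3 sets of values are not independent.

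**Figure D2:**
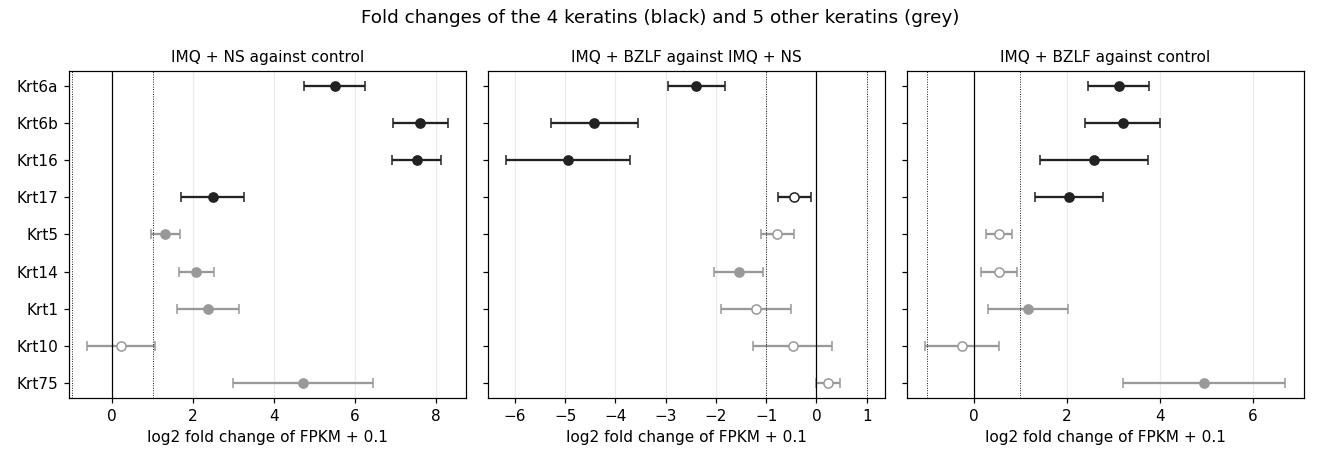
Log2 fold change of FPKM + 0.1 with its 95% limma interval for the 4 hyperproliferation keratins (black) and for Krt5, Krt14, Krt1, Krt10 and Krt75 (grey) in the 3 comparisons. Filled points passed both thresholds, and dotted lines mark a log2 fold change of 1 in either direction. In the middle panel Krt6a, Krt6b and Krt16 lie between -2.39 and -4.95 and Krt17 at -0.44.

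The position of each IMQ + BZLF sample between the IMQ + NS mean (0%) and the control mean (100%) describes how far a member had moved. On the log2 scale Krt16 was at 65.8 ± 16.0% and Krt6b at 58.0 ± 9.63% (SD, n = 4). Krt6a was at 43.4 ± 6.21% and Krt17 at 17.7 ± 4.71% (SD, n = 4). On the FPKM scale the same samples were at 96.4% for Krt16, 95.6% for Krt6b, 83.3% for Krt6a and 33.8% for Krt17. The order of the 4 members was the same on both scales, while the size of the step depended on the scale.

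The members were then compared with each other within samples, over 6 pairs and 3 comparisons, with exact permutation tests adjusted by the Benjamini-Hochberg method over the 18 tests. The pairs share members and the comparisons share samples, so these tests are not independent. The smallest possible exact p, 0.0286, passed the adjustment only because many of the 18 tests reached it. After BZLF the log2 changes of the other members minus that of Krt17 were -4.51 for Krt16 (SE 0.67), -3.98 for Krt6b (SE 0.45) and -1.95 for Krt6a (SE 0.22). These 3 differences each had an adjusted exact p = 0.0429, as did the smaller fall of Krt6a against Krt6b (2.03, SE 0.30) and against Krt16 (2.56, SE 0.58). The difference between Krt6a and Krt16 no longer passed without any one of the IMQ + NS samples (2.50 to 2.62, adjusted exact p = 0.0857), though the groups still did not overlap. Krt6b and Krt16 differed by 0.53 (SE 0.31, exact permutation p = 0.171), and by 0.74 without IMQ + BZLF replicate 4, where the difference passed (adjusted exact p = 0.0396). In IMQ + NS against control samples they differed by 0.09 (SE 0.12, exact permutation p = 0.429), whereas the other 5 pairs each differed at an adjusted exact p = 0.0429.

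Between IMQ + BZLF and control samples, 2 of the 6 pairs passed. The rise of Krt6a was 1.07 larger than that of Krt17 (SE 0.17), and the rise of Krt6b was 1.16 larger (SE 0.43), each at an adjusted exact p = 0.0429. The difference between Krt6b and Krt17 no longer passed with 1 added to FPKM in place of 0.1 (0.68, adjusted exact p = 0.198), without any one control (0.96 to 1.27, adjusted exact p = 0.0857) or without IMQ + BZLF replicate 4 (0.79, adjusted exact p = 0.0735). Where a sample was left out, the groups still did not overlap. Krt6b and Krt16, at 0.62 (SE 0.32, exact permutation p = 0.114), passed without IMQ + BZLF replicate 4 (0.83, adjusted exact p = 0.0396). For Krt16 and Krt17 the difference was 0.53 (SE 0.68, exact permutation p = 0.571).

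The make-up of the 4-member sum followed from these differences. The sum was 327 ± 195, 3069 ± 837 and 1289 ± 108 FPKM (SD, n = 4 each). This was 0.0724%, 0.615% and 0.265% of all FPKM in the sample. Krt17 made up 94.4% of the sum in normal skin, 52.1% with IMQ + NS and 88.8% with IMQ + BZLF. Krt16 was 0.974%, 24.7% and 1.86% of the summed Krt16 and Krt17, and 0.989% in the IMQ + BZLF group without replicate 4. Krt6b was 13.8%, 41.8% and 15.4% of the summed Krt6a and Krt6b.

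**Figure D3:**
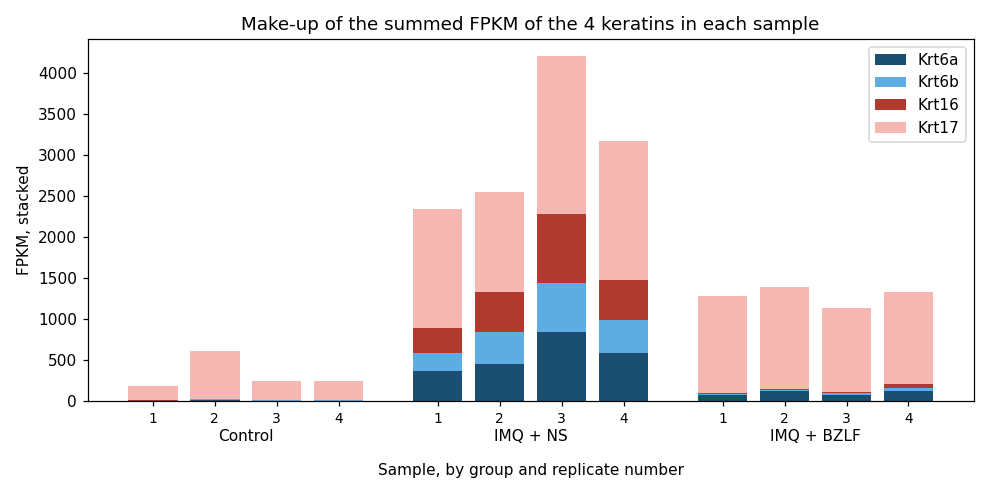
FPKM of Krt6a, Krt6b, Krt16 and Krt17 stacked for each of the 12 samples, ordered by group and replicate number. Krt17 made up 94.4%, 52.1% and 88.8% of the sum on average, from control to IMQ + BZLF.

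Type II and type I keratins pair in the filament, so their balance was also measured. The FPKM of Krt6a and Krt6b together was 0.0489 ± 0.00579 times that of Krt16 and Krt17 together in the control group. The ratio was 0.454 ± 0.0831 with IMQ + NS and 0.107 ± 0.0249 with IMQ + BZLF (SD, n = 4 each). The 3 groups did not overlap, and on the log2 scale the ratio was 3.20 higher in IMQ + NS than in control samples and 2.10 lower in IMQ + BZLF than in IMQ + NS samples (exact permutation p = 0.0286 each). These ratios are of transcripts and leave out the other keratins that pair with the members.

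Of the keratins of the basal layer, Krt5 and Krt14 moved too. Krt5 had 657 ± 82.9, 1652 ± 359 and 955 ± 110 FPKM in the 3 groups (SD, n = 4 each). Krt14 had 486 ± 70.6, 2100 ± 597 and 714 ± 157 FPKM (SD, n = 4 each). Both rose in the IMQ + NS group, and Krt14 fell after BZLF by 1.54 on the log2 scale (SE 0.22, limma adjusted p = 0.00571), while Krt5, at -0.78 (SE 0.15, limma adjusted p = 0.0183), stayed under the fold threshold. Krt15, another basal keratin, ran the other way in its means, with 387 ± 55.0, 217 ± 28.2 and 259 ± 23.5 FPKM (SD, n = 4 each). Its log2 difference was -0.83 in IMQ + NS against control samples (SE 0.13, limma adjusted p = 0.000679), under the fold threshold, and 0.26 after BZLF (SE 0.10, limma adjusted p = 0.176). The 5 basal keratinocyte markers, these 3 keratins among them, summed to 1307 to 1763 FPKM in the control samples, 3310 to 5390 FPKM in the IMQ + NS samples and 1637 to 2296 FPKM in the IMQ + BZLF samples. Of the markers that are no keratins, Trp63, the master regulator of basal keratinocytes, had 14.3 to 31.5, 38.1 to 41.9 and 30.8 to 35.6 FPKM. Itgb4, a hemidesmosome integrin, had 10.6 to 13.1, 14.7 to 16.9 and 9.87 to 13.1 FPKM.

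Each member was therefore also measured against the mean log2 level of Krt5 and Krt14 in the same sample, with 12 tests adjusted together. Here too the tests are linked, and the smallest possible exact p passed only because many of them reached it. Relative to Krt5 and Krt14, Krt16 was lower in the IMQ + BZLF than in the IMQ + NS group by 3.79 (SE 0.62), Krt6b by 3.26 (SE 0.38) and Krt6a by 1.23 (SE 0.16). Krt17 went the other way and was higher by 0.72 (SE 0.18), with no overlap. All 4 differences had an adjusted exact p = 0.0312. That of Krt16 no longer passed without IMQ + NS replicate 2, 3 or 4 (-3.78 to -3.70, adjusted exact p = 0.0623), and that of Krt17 without IMQ + BZLF replicate 1 (0.60, adjusted exact p = 0.0623). The groups still did not overlap in these cases. In FPKM, the mean of Krt17 was lower after BZLF.

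In IMQ + NS against control samples the relative rise was 5.92 for Krt6b, 5.83 for Krt16 and 3.81 for Krt6a, each at an adjusted exact p = 0.0312. For Krt17 it was 0.78 (SE 0.38, exact permutation p = 0.143), and the groups overlapped through control replicate 2 alone, at 0.06 against -1.45 to -1.30 in the other controls. Without that sample the relative difference of Krt17 was 1.14 and passed (SE 0.14, adjusted exact p = 0.0312).

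**Figure D4:**
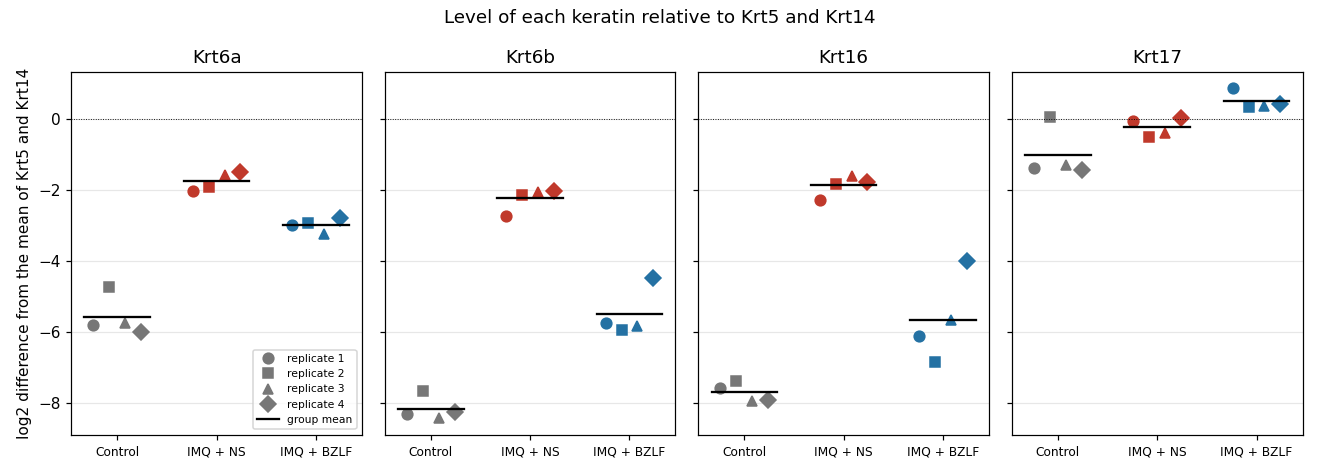
Log2 level of each hyperproliferation keratin minus the mean log2 level of Krt5 and Krt14 in the same sample, with marker shape for the replicate number and a line at the group mean. Krt6a, Krt6b and Krt16 were lower in the IMQ + BZLF than in the IMQ + NS group, and Krt17 was higher.

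Other keratins of the epidermis and of simple epithelia formed a list of 20 genes. Of these 17 were tested, and 6 rose and 1 fell in IMQ + NS against control samples, with a median log2 change of 0.70 against 0.05 over all tested genes. After BZLF, 1 rose and 1 fell, Krt77 and Krt14, with a median of -0.03 against -0.02 over all tested genes. Krt77, a suprabasal keratin, had 598 ± 227, 3.63 ± 2.26 and 34.4 ± 16.5 FPKM in the 3 groups (SD, n = 4 each), and its rise after BZLF was 3.27 on the log2 scale (SE 0.40, limma adjusted p = 0.00354). It ran opposite to Krt6a, Krt6b and Krt16 in both comparisons.

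Of the 2 main suprabasal keratins, Krt1 rose from 232 ± 94.0 FPKM in control to 1152 ± 328 FPKM in IMQ + NS samples, and its 517 ± 208 FPKM in IMQ + BZLF samples was not called lower (log2 difference -1.20, limma adjusted p = 0.0534). Krt10 was not called in any comparison, with 1012 ± 369, 1185 ± 488 and 843 ± 325 FPKM in the 3 groups (SD, n = 4 each). Against control samples, 6 of the 17 rose and 1 fell in IMQ + BZLF samples, and 4 rose and 1 fell without control replicate 2.

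The keratins of the hair follicle are set beside Krt17 because it is also a follicle keratin. Of the companion layer and inner root sheath keratins, 8 of 8 tested rose in IMQ + NS against control samples, with a median log2 change of 6.83, and 0 of 8 were called by limma after BZLF, where the median was 0.33 and 3 were higher at an unadjusted p under 0.05. The largest rises were those of Krt72 (7.38) and Krt26 (7.34). Krt75 had 17.0 FPKM on average in the control, 217 in the IMQ + NS and 257 in the IMQ + BZLF group. All 16 hair shaft keratins rose in IMQ + NS against control samples, with a median of 7.73, led by Krt81 (8.58) and Krt86 (8.56). After BZLF 0 of 16 were called by limma, with 1 higher at an unadjusted p under 0.05, and their median was 0.32. All 8 and all 16 were also higher in IMQ + BZLF than in control samples, with medians of 7.12 and 8.04. Without control replicate 2, the counts of both lists against controls were the same, and the median of the companion layer and inner root sheath keratins was 8.39 with IMQ + NS and 8.68 with IMQ + BZLF. The part of the hair follicle keratins in the rise of Krt17 was not tested.

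Keratinocytes with the hyperproliferation keratins are known for other transcripts as well, among them antimicrobial peptides, small proline-rich proteins and stefins. Of 25 such genes 23 were tested, and 21 rose and 0 fell in IMQ + NS against control samples, with a median log2 change of 4.35. The largest rises were those of Defb3, a beta-defensin (8.72), and Sprr1b, a cornified envelope precursor (8.64). After BZLF 11 of 23 fell and 0 rose, with a median of -0.86. Defb3 fell by 9.04 and S100a9, a calprotectin subunit that neutrophils also carry, fell by 7.06 on the log2 scale. For a gene near 0 FPKM outside the IMQ + NS group, the size of the change depends on the constant added before the logarithm. Defb3, whose fall was larger than its rise, can be such a gene. A gene that passed the filter mainly through the IMQ + NS group could hardly do other than fall. How many of the 23 did so was not counted. Compared with normal skin, 16 of 23 were higher and 0 lower in IMQ + BZLF samples, with a median of 2.10.

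The neutrophil markers, 5 of 5 in the table, summed to 27.5 to 46.5 FPKM in the control samples, 3119 to 9865 FPKM in the IMQ + NS samples and 61.5 to 82.1 FPKM in the IMQ + BZLF samples. Of these markers S100a8 and S100a9 are also in the list of activated keratinocyte genes. In the IMQ + NS samples they had 1569 to 4874 and 1537 to 4957 FPKM, so nearly all of the sum was these 2 genes. Cxcr2, a chemokine receptor of neutrophils, had 0.0962 to 0.396, 3.20 to 10.2 and 0.314 to 1.09 FPKM. The highest sum and the highest Cxcr2 were in IMQ + NS replicate 3, where all 4 members were also highest. The fibroblast markers summed to 9866 to 14395, 2501 to 3374 and 3103 to 5910 FPKM in the 3 groups. Of these markers Pdgfra, a receptor, did not follow the sum, with 13.7 to 19.5, 13.99 to 17.4 and 10.02 to 18.1 FPKM. The lower sums in the IMQ groups therefore came from the other fibroblast markers. The 5 skeletal muscle markers summed to 3212 to 8017, 609 to 1435 and 1043 to 1427 FPKM. The part of these cell types in the differences of the members was not tested.

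Genes of the cell cycle make up the next list. Of 15 proliferation genes 13 rose in IMQ + NS against control samples, with a median log2 change of 1.80, led by Mki67 (2.26), a marker of cycling cells, and the cyclin Ccnb1 (2.20). After BZLF 0 of 15 were called by limma, 8 were lower at an unadjusted p under 0.05, and all 15 fitted changes were below 0 with a median of -0.20. Mki67 had 22.3 ± 1.62 FPKM in the IMQ + NS and 20.7 ± 1.69 FPKM in the IMQ + BZLF group (SD, n = 4 each). Against controls, 5 of 15 were higher in IMQ + BZLF samples, and 14 of 15 without control replicate 2. Without it 14 of 15 were also higher in IMQ + NS samples, and the medians were 2.56 with IMQ + NS and 2.40 with IMQ + BZLF, the latter against 1.63 with all controls.

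Cytokines and growth factors known to induce these keratins, together with some of their receptors, were tested next, 18 of 24 in all. In IMQ + NS against control samples 8 rose and 1 fell, with a median log2 change of 0.67. Tgfa, a ligand of the epidermal growth factor receptor, rose by 3.03, and Btc, another such ligand, fell by 1.55. After BZLF 4 fell and 0 rose, with a median of -0.49 against -0.02 over all tested genes, and all 18 fitted changes were below 0. The 4 were Il1b, Il17a, Il17f and Tnf, of which Il17f and Tnf are named after their values were seen. Il1b, an inflammatory cytokine, had 5.67 ± 0.569, 28.5 ± 19.2 and 2.07 ± 0.666 FPKM in the 3 groups (SD, n = 4 each). Il17a, a cytokine of type 17 T cells, had a mean of 0.717 FPKM in the IMQ + NS group and was listed at 0 in all samples of the other two. It thus passed the filter of 0.1 FPKM through the IMQ + NS group alone and could only fall after BZLF. Its place among the 4 falls and the 18 changes below 0 therefore carries no weight. Tgfa had 24.99 ± 2.03 FPKM in the IMQ + NS and 24.9 ± 3.87 FPKM in the IMQ + BZLF group (SD, n = 4 each). Against controls, 4 of the 18 rose in IMQ + BZLF samples, with Tgfa at 3.01 and Areg at 2.40, and 5 fell, with Tnf at -2.38 and Btc at -1.67.

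Of 21 tested transcription factors and regulators known to act on these keratins, 3 rose and 1 fell in IMQ + NS against control samples, with a median log2 change of 0.36. Over all tested genes 11.4% rose and 11% fell, so these counts do not set the list apart. Tfap2a rose by 1.84 and Fosl1, an AP-1 subunit, by 1.82, while Fos fell by 4.17. Where 2.20% of all tested genes were called lower after BZLF, 1 of 21 was, with a median of -0.16. This was Nfkbiz, a nuclear regulator that acts downstream of interleukin-17, with 6.59 ± 1.75, 12.9 ± 2.36 and 4.395 ± 0.626 FPKM in the 3 groups (SD, n = 4 each). Its fall was 1.53 on the log2 scale (SE 0.15, limma adjusted p = 0.00134). Between IMQ + BZLF and control samples Tfap2a (1.73) and Fosl1 (1.51) were higher and Fos (-5.09) was lower, with 18 of 21 not called. Over all tested genes 9.65% were higher and 10.1% lower, so these counts do not set the list apart either. Without control replicate 2, 4 rose and 1 fell in each comparison with controls.

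Likeness was measured as the root mean square of the log2 differences between gene-centred profiles over the 12 samples, among the 12657 genes that averaged 1 FPKM or more. Krt6b and Krt16 were nearer to each other, at 0.43, than either was to any gene outside the 4. The nearest of these to Krt6b were Stfa1 (0.56), Sprr2f (0.57) and Lce3b (0.64), and to Krt16 they were Stfa1 (0.56), Sprr2i (0.57) and Serpinb3a (0.60). In control samples the means of these genes ran from 0 FPKM (Lce3b) to 0.145 FPKM (Sprr2i), at or near the 0.1 added before the logarithm. Their distances and order therefore depend on that constant, and they passed the filter of 1 FPKM mainly through the IMQ + NS group. Nearest to Krt6a were Klk13 (0.54), Hpx (0.54) and Klk14 (0.57), all nearer than Krt6b (1.03). Hpx and Klk14 averaged 0.148 and 0.0928 FPKM in control samples, so the same limit holds for them.

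Krt17 was far from the other members, at 1.27 to 2.38, and nearest to Lrat (0.19), Fam167a (0.19) and Macc1 (0.22). Lrat had a mean of 1.001 FPKM in the control, 5.77 in the IMQ + NS and 3.78 in the IMQ + BZLF group. Nearest to the mean profile of the 4 members were 2610528A11Rik (0.46), Teddm3 (0.47), Defb4 (0.53), Klk6 (0.59) and Klk13 (0.60). Of these, Klk6 had 7.42, 189 and 27.9 FPKM on average in the 3 groups. Defb4 averaged 0 FPKM in control samples, so its distance also depends on the constant added. All samples of a group share its treatment, so these distances describe the 3 group levels more than 12 separate points.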

How the data were processed

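Skin RNA-seq covered 12 samples in 3 groups. The authors deposited FPKM values, 1 per gene and sample, normalized for transcript length and depth. The study's methods name Bowtie2 on transcripts, eXpress and DESeq2 on counts, whereas the submitters' processing notes name fastp, HISAT2, HTSeq, R 3.2.0 and mm10. Which of these made the FPKM values was not settled, nor how reads shared by keratin copies were assigned. Counts were not rebuilt, since 32.2% of low values lay within 0.05 of a whole multiple of their gene's smallest value. The reads counted per gene are therefore unknown, although the study reports a similar amount of sequence data for every sample. The precision rests on 4 replicates.

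The 15288 genes that averaged 0.1 FPKM or more were put through limma 3.58.1 (R 4.3.3; moderated variances with a trend) as log2(FPKM + 0.1), each pair of groups alone, with Benjamini-Hochberg adjustment over all tested genes. Scripts were tested on simulated data. Single values were compared by two-sided exact permutation tests. Named in the text were the 4 members, the epidermal keratins called after BZLF with Krt5, Krt14, Krt1 and Krt10, up to 2 of the largest rises and falls per other list, and the nearest genes by profile. Krt75, Krt15, Trp63, Itgb4, Cxcr2, S100a8 and Pdgfra are named outside this rule, as cell type markers picked after their values were seen. The members, gene lists and rules were chosen with earlier results of these data known. Sequences were read from GENCODE M21 transcripts on GRCm38. RefSeq promoter entries matched 0 of the 4 members. Alternatives were constants of 0.01 and 1, no filter, other scalings, all groups in 1 fit, unadjusted p, a replicate block, summed Krt6a and Krt6b, and leaving out each sample. Comparisons of the gene lists without control replicate 2, and mean ratios and shares without IMQ + BZLF replicate 4, were added after the data were seen.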

Additional observations from a re-analysis of the deposited data

Results flagged for a closer look

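In 3 of 12 groups of 4 samples, 4 members by 3 groups, 1 sample lay far from the other 3 by Dixon's test on FPKM at the 95% level, where chance flags about 1 group in 20. The 4 members share their samples, so the 12 groups are not independent and their count cannot be set against that rate. IMQ + BZLF replicate 4 had 37.6 FPKM of Krt6b against 12.02 to 16.1 FPKM in the other 3, and 52.3 FPKM of Krt16 against 8.47 to 15.7 FPKM. Without it, the log2 change in IMQ + BZLF against IMQ + NS samples was -4.78 for Krt6b and -5.52 for Krt16, and against control samples 2.84 and 2.01, all called by limma. The same sample was not apart for Krt6a or Krt17, and it had the highest Cxcr2 of its group, at 1.09 FPKM against 0.314 to 0.820 FPKM. Control replicate 2 had 588 FPKM of Krt17 against 178 to 236 FPKM in the other controls. It was also the highest control for Krt6a, Krt6b and Krt16, with its Krt75 at 13.0 times the mean of the others, while its Krt5 was 1.08 times and its Krt14 0.928 times that mean. The causes were not tested.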

How the results depend on the processing

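The calls of the 4 members held their direction and side of the threshold in all 150 checks with another setting and all 96 with a sample left out, and Krt17 was never called after BZLF. Not all 150 were separate refits. They include the unadjusted p of the main fit, and each fit of summed Krt6a and Krt6b is counted for both genes. With 1 added to FPKM in place of 0.1, the difference between Krt6b and Krt17 in IMQ + BZLF against control samples was 0.68 and no longer passed (adjusted exact p = 0.198). The same constant called 1023 genes lower in IMQ + NS against control samples (1678 with 0.1), 17 higher and 188 lower in IMQ + BZLF against IMQ + NS samples (49 and 336), and 979 higher and 865 lower in IMQ + BZLF against control samples (1475 and 1542). The unadjusted p called 88 higher after BZLF in place of 49, and with a sample left out that count ran from 19 to 78. Scaling to equal sums moved the median of all genes against controls from 0.05 to -0.07 in IMQ + NS and from -0.02 to -0.12 in IMQ + BZLF samples, and the split of higher and lower calls from 1740 and 1678 to 1463 and 2017, and from 1475 and 1542 to 1295 and 1869. Samples with the same number did not deviate together, with correlations from -0.15 to 0.26, so the numbers were not taken to pair samples. A replicate block gave 1730 higher and 1684 lower, 47 and 335, and 1457 and 1527 in the 3 comparisons. With a sample left out, 133 of 144 exact tests between members, 83 of 96 relative to Krt5 and Krt14 and all 24 of the type II to type I ratio kept their side of the threshold. The rest ranged as follows. Krt6a minus Krt16 ran from 2.15 to 3.04 and Krt6b minus Krt16 from 0.28 to 0.74 after BZLF, and against control samples Krt6b minus Krt16 ran from 0.37 to 0.83 and Krt6b minus Krt17 from 0.79 to 1.36. Relative to Krt5 and Krt14, Krt16 ran from -4.34 to -3.39 and Krt17 from 0.60 to 0.81 after BZLF, and Krt17 from 0.64 to 1.14 in IMQ + NS against control samples. In IMQ + BZLF against control samples the relative values were 1.49 to 2.44 for Krt16, which did not pass without any one control (adjusted exact p = 0.0571 to 0.0623), and 1.36 to 1.86 for Krt17, which did not pass without any one IMQ + BZLF sample (adjusted exact p = 0.0623). For both keratins the groups still did not overlap in these tests. The causes of these shifts were not tested.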
